A study of Mus musculus with 12 samples.

Results

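Of 24189 gene names shared by the RNA-seq files, 97 genes had at most 0.5 times the control level in plasma cells (PCs) that lack *Bhlha15*, the gene coding for the transcription factor Mist1, but differed little in plasmablasts (PBs) of a *Bhlha15* mutant. These genes were selected on the measured means of 2 libraries in each group, given as TPM, a level corrected for gene length. A gene had a mean of at least 5 TPM in control PCs and a mean in *Bhlha15*-deficient PCs of at most 0.5 times that value. It also had a mean of at least 2 TPM in *Xbp1* fl/fl PBs and a mean in *Bhlha15* CreER/CreER PBs between 0.8 and 1/0.8 times that value, and names starting with Mir or Sno were left out. The ratios of the 97 genes in these comparisons therefore describe the selection, and no test is given for them.

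The PCs had the surface phenotype TACI+CD138+ and were isolated from spleens of C57BL/6 mice 7 days after immunization with NP-KLH. The control PCs are labelled wildtype and carried the floxed *Bhlha15* allele according to the methods of the study, and the mutant PCs came from *Cd23*-Cre *Bhlha15* fl/fl mice, in which Cre acts from the immature B cell stage onwards. The PBs were sorted by surface markers that included CD138 after 8 days of culture in the iGB system, which uses 40LB feeders, a fibroblast line presenting CD40 ligand and BAFF. They came from *Xbp1* fl/fl mice (called control PBs here), from mice that carry *Cd23*-Cre together with *Xbp1* fl/fl (Xbp1-deficient) and from *Bhlha15* CreER/CreER mice (CreER PBs). The last mice carry CreER in the *Bhlha15* gene and were compared with *Xbp1* fl/fl PBs because no littermate controls of their own were analysed here. The PCs were sorted directly from immunized mice, whereas the PBs were grown from splenic B cells for 8 days on feeders. The PC and PB comparisons thus differ in culture, in the mutant allele and in the type of control. These differences cannot be told apart from the stage. Mist1 binding was measured in 2 Bio-ChIP-seq experiments with streptavidin on *Bhlha15* fl/fl R26 BirA/BirA PBs after 4 days of LPS stimulation, as the floxed allele adds a biotin acceptor to Mist1. Nothing in the labels says whether the 2 libraries of a group came from separate animals, so that p-values measure the spread between these libraries.

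Mist1 is a basic helix-loop-helix transcription factor that binds E-boxes, short DNA elements of the form CANNTG. It is known for its expression in secretory cells, such as pancreatic acinar cells and PCs. A role in shaping the secretory apparatus is known from secretory cells other than PCs. For PCs, the study concluded that the ultrastructure was similar with and without Mist1. The transcription factor Xbp1, which is activated in the unfolded protein response, is known to activate *Bhlha15*, so that Mist1 acts downstream of Xbp1. PBs are dividing antibody-secreting cells, whereas PCs are their more mature descendants.

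The labels were checked against the targeted genes. *Bhlha15* was at 258 and 242 TPM in control PCs and at 14.4 and 16.6 TPM in *Bhlha15*-deficient PCs. In the PBs, it was at 176 and 159 TPM in the control PB libraries, at 0.21 and 0.551 TPM in the CreER libraries and at 3.57 and 2.60 TPM in the Xbp1-deficient libraries. The residual level in the mutant PCs was thus higher than in either mutant PB group, and both PB mutants had little *Bhlha15* mRNA. Prominent PC genes such as *Sdc1*, *Prdm1* and *Irf4* were well expressed in all 10 libraries, at 156.5 TPM or more in each case. The further PC markers *Xbp1*, *Tnfrsf13b* and *Mzb1* were at 180 TPM or more in every library. *Tnfrsf17* differed between the stages, at 479.7 to 583.6 TPM in the PC libraries and at 16.05 to 33.25 TPM in the PB libraries.

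Some libraries carried RNA of other cells or of another sex. The fibroblast genes *Col1a1* and *Col1a2* were at 252 to 904 TPM in the PB libraries and below 0.5 TPM in the PC libraries. Summed over the 5 fibroblast markers, the level was 928 and 1108 TPM in control PBs, 1243 and 730 TPM in CreER PBs and 1414 and 1291 TPM in Xbp1-deficient PBs. The PC libraries in turn contained T cell, neutrophil and macrophage markers, and the sum of 6 neutrophil markers of 934 and 436 TPM in control PCs overlapped that of 799 and 533 TPM in *Bhlha15*-deficient PCs. Y-linked transcripts were nearly absent from the second *Bhlha15*-deficient PC library and from the first Xbp1-deficient PB library, in which *Ddx3y* was at 0.0187 and 1.08 TPM. The X-linked transcript *Xist* was at 264 and 239.5 TPM in control PCs and at 527 and 470 TPM in *Bhlha15*-deficient PCs. In the PBs, it was at 51.3 and 69.6 TPM in control, 48.6 and 37.6 TPM in CreER and 116 and 0.185 TPM in Xbp1-deficient libraries. The part of these signals in the results was not tested, and fewer cells of a type and less RNA per cell cannot be told apart in sorted bulk samples.

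Of 9194 genes that passed both level limits, 264 or 2.87% were at 0.5 or less in *Bhlha15*-deficient PCs, and 97 of these fell into the PB band of 0.8 to 1/0.8, which held 92.3% of the genes past the limits. A further 143 genes were at 0.5 to 0.8 in CreER PBs, 21 genes were at 0.5 or less and 3 genes were above the band. The PB band thus took up 36.7% of the genes that were reduced in PCs. Within the band the 97 genes lay low, with a median ratio of 0.883 in CreER PBs against 0.981 for the 9194 genes. In 77 of the 97 genes the CreER mean was below the control PB mean. Both CreER libraries were below both control PB libraries for 41 of them and above for 1, *Kdm5d*, whereas 24.7% of all genes past the limits were separated downwards and 19.0% upwards. A need for Mist1 only in PCs is thus not shown by these values, which show a lower ratio in PCs than in PBs for each gene. The selection also depended on single libraries, as only 30 of the 97 genes met all limits when each of the 8 libraries was left out in turn.

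**Figure D1:**
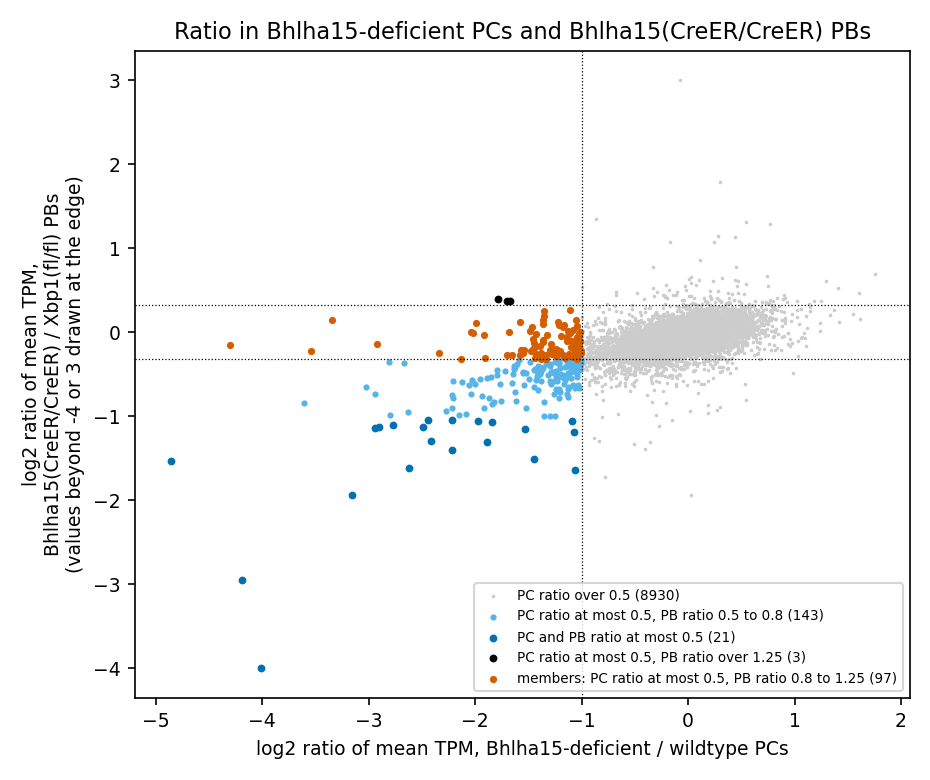
Ratio of mean TPM in *Bhlha15*-deficient over control PCs (x axis, log2) and in CreER over control PBs (y axis, log2) for the 9194 genes past the level limits, each point being 1 gene and the dotted lines the limits of the selection. The 97 selected genes (orange) lie in the band around 0 on the y axis, most of them below 0, while 143 and 21 genes (light and dark blue) lie below the band.

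In PCs, both *Bhlha15*-deficient libraries were below both control libraries for all 97 genes, compared with 36.9% of the 9194 genes, and this count is fixed in large part by the selection. The median ratio was 0.416, against 1.003 over the 9194 genes. Most reductions were moderate, as 54 genes were lower by 2 to 2.5-fold, whereas 14 genes were lower by more than 3-fold and 5 genes, *Nes*, *Mturn*, *Car5b*, *Tubb2a* and *Kank2*, by more than 5-fold. The control PC means ranged from 5.34 to 624 TPM with a median of 20.99 TPM, and the control PB means from 2.14 to 1193 TPM with a median of 18.4 TPM.

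The genes next to the PC ratio limit and to the lower PB limit had close values on either side, whereas the gaps were wider at the other limits. The tubulin gene *Tuba4a* and the guanine nucleotide exchange factor gene *Arhgef25* were just inside the PC limit with ratios of 0.4996 and 0.4986, and the transcription factor gene *Pou2f2* and the thrombomodulin gene *Thbd* just outside with 0.5002 and 0.5013. At the lower PB limit, *Dnm3* and *Dnaaf3* lay inside with 0.8 and 0.803, and *Pdk2* and *S1pr4* outside with 0.798 and 0.798. At the upper PB limit, *Rwdd2a* and *Osgin1* lay inside with 1.21 and 1.19, whereas the Y-linked genes *Eif2s3y* and *Ddx3y* lay outside with 1.29 and 1.30. For the PC level, *4933404O12Rik* and *Trp73* had control PC means of 5.34 and 5.34 TPM, and *Zfp808* and *Enam* missed the limit with 4.596 and 4.44 TPM. For the PB level, *Car5b* and *Rhpn2* had control PB means of 2.14 and 2.19 TPM, and *Psd3* and *Pvrl4* missed it with 1.98 and 1.86 TPM.

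Mist1 regions at the 97 genes were examined next, as binding was measured independently of the selection. Peaks of the 2 experiments that shared at least 1 bp were merged into 23804 common regions, with a median length of 1038 bp, on the mm9 build. The peak lists used here held 29413 and 30247 peaks. These and the common regions are fewer than the study reports, so that the shares below are not those of the study. All 97 genes were found in the GENCODE M1 annotation of this build, 8 of them under an older name. A common region lay within 1 kb of an annotated transcription start site (TSS) for 81 of the 97 genes, or 83.5% (95% Wilson interval 74.9 to 89.6%). This share was 73.6% over the 9007 annotated genes past the level limits. For genes at 0.5 to 0.8 and at 0.5 or less in CreER PBs, it was 90.6% (interval 84.7 to 94.5%) and 89.5% (interval 68.6 to 97.1%), so that the intervals of the 3 groups of PC-reduced genes overlapped. In the gene or within 10 kb of it, 90 of the 97 genes had a common region, or 92.8% (interval 85.8 to 96.5%), compared with 87.9% of the annotated genes past the limits. The intervals cover counting error over genes only. The median gene length was 21655 bp for the 97 genes and 22094 bp for the annotated genes past the limits.

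**Figure D2:**
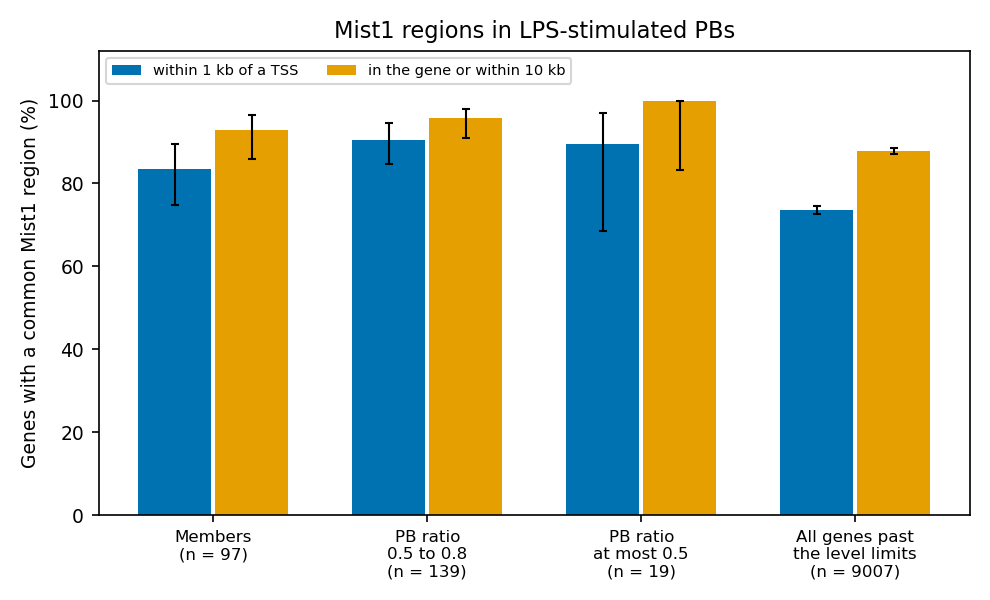
Share of genes (y axis, percent) with a common Mist1 region within 1 kb of a TSS (blue) or in the gene or within 10 kb of it (orange), with 95% Wilson intervals, for the 97 selected genes, the genes at 0.5 to 0.8 and at 0.5 or less in CreER PBs and all annotated genes past the level limits. The 83.5% of the selected genes with a region near a TSS compare with 73.6% of all genes, and every group exceeds 85% for the wider distance.

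The 7 genes without a common region in the gene or within 10 kb were *Dnajc12*, *Gm11110*, *Gnb4*, *Nmb*, *Rwdd2a* and the Y-linked genes *Uty* and *Kdm5d*, and they were listed after their values were seen. Among the most reduced genes, *Nes* (chromosome 3, 87775000 to 87784373, plus strand) had a region centred 350 bp downstream of a TSS, and *Mturn* (chromosome 6, 54631734 to 54653845, plus strand) had a region centred 167 bp upstream of one. *Cd93* (chromosome 2, 148262376 to 148269299, minus strand) had 3 regions in the gene or within 10 kb, and *Nuggc* (chromosome 14, 66217383 to 66267368, plus strand) had 7 regions. The peak lists give positions but no heights, so that the strength of binding was not compared.

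E-boxes were counted on both strands in windows of 201 bases around the centre of each region. Of the 93 common regions within 1 kb of a TSS of the 97 genes, 69 or 74.2% (interval 64.5 to 82.0%) contained a CANNTG element, compared with 59.8% of the 7066 such regions of all genes past the limits. The palindrome CAGCTG, which is 1 form of CANNTG, was found in 28 of the 93 regions or 30.1% (interval 21.7 to 40.1%), compared with 18.7% at all genes past the limits. The form CATATG was found in 2 of the 93 regions or 2.15%, compared with 3.23%, and CACGTG in 0, compared with 5.19%. The forms CAGATG and CAGGTG were each found in 21 of the 93 regions or 22.6%, compared with 13% and 17.8%. Over all 23804 common regions, near a TSS or not, 76.8% contained CANNTG and 28% contained CAGCTG. At the genes that were also below the band in CreER PBs, 75.2% of 165 regions contained CANNTG and 27.9% contained CAGCTG, which lay within the intervals of the 97 genes. A match describes these letters in the window and not a bound site.

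To show such elements in their context, 101 bases around a CAGCTG are shown for 5 of the 97 genes. They were the most reduced genes with one in the windows around region centres, in or upstream of the gene and outside annotated exons. Where these windows held several, the one nearest to a TSS is shown. The rest of each common region was not searched, so that genes left out may hold a CAGCTG there. Sequences are from the plus strand of mm9, 5′ to 3′, and capitals mark each CANNTG.
*Car5b*, chrX:160465708-160465808, intron: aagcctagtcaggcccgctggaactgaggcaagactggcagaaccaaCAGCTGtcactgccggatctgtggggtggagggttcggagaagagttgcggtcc
*Tubb2a*, chr13:34169420-34169520, intron: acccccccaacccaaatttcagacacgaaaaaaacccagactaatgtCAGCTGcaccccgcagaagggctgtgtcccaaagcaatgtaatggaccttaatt
*Matn2*, chr15:34358613-34358713, intron: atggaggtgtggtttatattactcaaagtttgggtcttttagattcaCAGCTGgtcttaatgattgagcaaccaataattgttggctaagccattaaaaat
*Fads2*, chr19:10146576-10146676, intron: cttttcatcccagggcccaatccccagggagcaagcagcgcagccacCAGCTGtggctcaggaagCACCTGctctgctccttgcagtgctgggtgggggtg
*Mxra8*, chr4:155208339-155208439, upstream: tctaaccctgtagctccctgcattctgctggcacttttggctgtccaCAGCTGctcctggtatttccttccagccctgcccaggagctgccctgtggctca
The elements of *Car5b* and *Tubb2a* lay 155 and 407 bp downstream of the nearest TSS, that of *Mxra8* lay upstream at -5400 bp, and those of *Fads2* and *Matn2* lay in introns at 29367 and 122223 bp. For comparison, *Bhlha15* itself and the serpin gene *Serpini1*, which were at 0.5 or less in both PCs and CreER PBs, held the following elements in common regions.
*Bhlha15*, chr5:144945089-144945189, upstream: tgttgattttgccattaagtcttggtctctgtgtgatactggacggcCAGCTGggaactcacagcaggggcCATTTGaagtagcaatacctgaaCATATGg
*Serpini1*, chr3:75378128-75378228, intron: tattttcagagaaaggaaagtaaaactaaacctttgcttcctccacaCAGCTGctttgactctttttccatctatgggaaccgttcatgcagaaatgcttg
As these genes were chosen for holding a CAGCTG, its presence says nothing on how often it occurs at either kind of gene.

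Roles were assigned by hand to the 97 genes only. No share over the genes past the level limits was counted, so that no theme is read from the group sizes. The cytoskeleton group held 19 of the 97 genes, with a median PC ratio of 0.370. *Nes*, which codes for the intermediate filament protein nestin, was at 14.9 and 10.6 TPM in control PCs and at 0.496 and 0.792 TPM in *Bhlha15*-deficient PCs, a 19.8-fold lower mean. In PBs, it was at 44.8 and 40.1 TPM in the control PB libraries and at 40.2 and 36.1 TPM in the CreER libraries, which overlapped. *Nes* thus had a higher level in PBs than in PCs and the lowest PC ratio of the 97 genes, whose next value belonged to *Mturn*.

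The beta-tubulin genes *Tubb2a* and *Tubb2b* lie close to each other on chromosome 13. *Tubb2a* was at 64.7 and 56.5 TPM in control PCs and at 8.88 and 7.07 TPM in *Bhlha15*-deficient PCs, while *Tubb2b* was at 51.9 and 45.3 TPM in control PCs and at 16.6 and 16.2 TPM in mutant PCs. In control PBs, the levels were lower, at 21.1 and 22.02 TPM for *Tubb2a* and at 6.52 and 5.31 TPM for *Tubb2b*, and the CreER libraries gave 21.5 and 17.7 TPM as well as 4.96 and 5.26 TPM. The transcripts of both genes share 96.4% identity over 1350 bases, so that reads may be split between them and their separate values are uncertain.

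*Csrp1*, which codes for a LIM domain protein bound to actin structures, was the most highly expressed gene of this group after *Lsp1* in control PCs, at 299 and 231 TPM compared with 89.8 and 90.9 TPM in *Bhlha15*-deficient PCs. In PBs it was at 283 and 294 TPM in control PB and at 251 and 236 TPM in CreER libraries, so that the PB groups were also separated, with a ratio of 0.845. *Lsp1*, which codes for an F-actin-binding protein of leukocytes, was at 334 and 301 TPM in control PCs and at 146 and 159 TPM in the mutant. The gene of the gamma-tubulin *Tubg2* was at 12.2 and 9.62 TPM in control and at 3.57 and 4.49 TPM in mutant PCs. The actin regulators *Kank2*, *Pdlim1* and *Rhpn2* and the Cdc42-binding kinase gene *Cdc42bpg* had PC ratios of 0.197, 0.362, 0.364 and 0.344. The ciliary assembly genes *Dnaaf3* and *Hyls1* were also among the 97, the former at 5.05 and 5.84 TPM in control and at 1.30 and 1.19 TPM in mutant PCs. The remaining genes of this group, *Tuba4a*, *Tpm1*, *Ttll1*, *Kif1b*, *Arhgef25*, *Spata13* and *Sgcb*, had ratios of up to 0.4996.

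**Figure D3:**
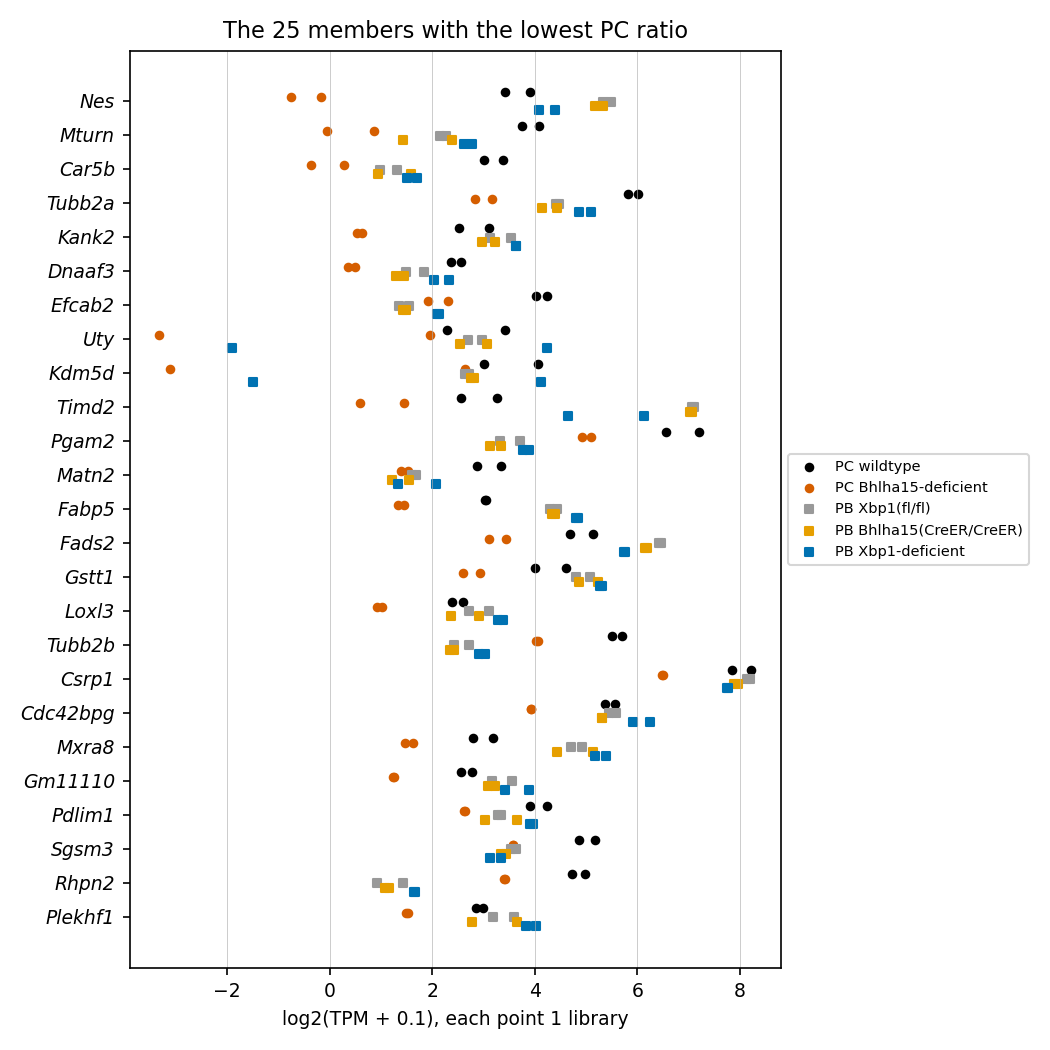
Level in each library, as log2(TPM + 0.1) on the x axis, of the 25 selected genes with the lowest PC ratio, ordered from the top; circles are PC libraries and squares PB libraries, each point being 1 library. For each gene both *Bhlha15*-deficient PC libraries (orange circles) lie left of both control PC libraries (black circles), and *Uty* and *Kdm5d* have 1 mutant PC library near 0 TPM.

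The metabolism group held 20 genes, with a median PC ratio of 0.454. *Car5b*, which codes for a mitochondrial carbonic anhydrase, was at 10.3 and 7.97 TPM in control PCs and at 1.12 and 0.679 TPM in *Bhlha15*-deficient PCs. In PBs it was at a low level, at 1.88 and 2.4 TPM in control PB and at 2.91 and 1.81 TPM in CreER libraries, which overlapped. *Pgam2*, which codes for a phosphoglycerate mutase of glycolysis, was at 148 and 93.7 TPM in control PCs and at 34.03 and 30.2 TPM in mutant PCs. It was at only 9.96 and 12.98 TPM in control PBs, so that its level in mutant PCs still exceeded that in PBs.

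Both genes of fatty acid metabolism showed the opposite order of stages. *Fads2*, which codes for a desaturase of polyunsaturated fatty acids, was at 35.0 and 25.8 TPM in control PCs, at 10.8 and 8.51 TPM in mutant PCs and at 87.8 and 85.7 TPM in control PBs. Its CreER PB libraries were lower, at 72.8 and 71.5 TPM, without overlap. *Fabp5*, which codes for a fatty acid-binding protein, was at 8.03 and 8.15 TPM in control PCs and at 2.41 and 2.64 TPM in mutant PCs, and its PB groups overlapped at 19.7 and 21.4 TPM in control PB and at 20.9 and 20.1 TPM in CreER libraries. Of the amino acid enzymes, *Got1*, which codes for the cytosolic aspartate aminotransferase, was at 158 and 131 TPM in control PCs and at 58.4 and 61.1 TPM in mutant PCs. *Bckdhb*, which codes for a subunit of the branched-chain ketoacid dehydrogenase, was at 36.8 and 30.9 TPM in control and at 16.1 and 14.6 TPM in mutant PCs.

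The glutathione S-transferase gene *Gstt1* was at 24.3 and 16.0 TPM in control PCs and at 5.95 and 7.52 TPM in mutant PCs, and *Msrb1*, which codes for a methionine sulfoxide reductase, was at 177 and 141 TPM compared with 79.9 and 74.9 TPM. The remaining metabolic genes were *Pgm1*, *Gstt3*, *Ptges*, *Ppt2*, *Ppap2a*, *Adck3*, *Macrod1*, *Thop1*, *Lyrm9*, *Ndst1*, *Scap* and *Mettl7a1*, and no gene of the group had a ratio above 0.496. Transcripts of *Mettl7a1* share 95.5% identity with those of *Mettl7a2*, so that the value of this gene is uncertain.

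Of the 18 genes of receptors, membrane proteins and immune signaling, several are known from B cells and PCs. *Fcgr2b*, which codes for the inhibitory Fc receptor of B cells, was at 271 and 242 TPM in control PCs and at 106 and 103 TPM in *Bhlha15*-deficient PCs. Its level was lower in PBs, at 31.2 and 31.7 TPM in control PB and at 31.1 and 23.4 TPM in CreER libraries, and a stretch of its transcript is 96.3% identical to *Fcgr3*, so that reads of both genes may mix. *Cd93*, which codes for a surface receptor known for its role in the maintenance of bone marrow PCs, was at 139 and 129 TPM in control PCs and at 58.4 and 52.3 TPM in mutant PCs. It was at 535 and 493 TPM in control PBs and at 460 and 440 TPM in CreER PBs, which did not overlap.

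*Timd2*, which codes for a surface receptor of ferritin, had the largest excess of PBs over PCs. It was at 5.81 and 9.53 TPM in control PCs and at 1.41 and 2.64 TPM in mutant PCs, compared with 138 and 133 TPM in control PBs and 131 and 133 TPM in CreER PBs. Its mean was thus 17.7-fold higher in control PBs than in control PCs. *Nuggc*, which codes for a nuclear GTPase known from germinal center B cells, was at 193 and 187 TPM in control PCs and at 91.7 and 88.5 TPM in mutant PCs. *Lgals1*, which codes for galectin-1, had the highest control PC mean of the 97 genes, at 684 and 564 TPM compared with 291 and 323 TPM in the mutant.

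The cytokine signaling inhibitor gene *Socs3* was at 16.2 and 13.6 TPM in control PCs and at 6.83 and 4.84 TPM in mutant PCs, and the AP-1 transcription factor gene *Batf* was at 28.3 and 30.7 TPM compared with 14.1 and 14.2 TPM. The antiviral membrane protein gene *Ifitm3* was at 134 and 105 TPM compared with 46.3 and 42.1 TPM. The tetraspanin gene *Tspan4* had a ratio of 0.464. *Gpr171*, *Nrp1*, *Tspan5*, *Scimp*, *Dusp2*, *Glipr2*, *Gnb4* and *Nmb* were also in this group, whose median ratio was 0.460.

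Genes of stress response and growth arrest comprised 7 genes with a median PC ratio of 0.388. *Gadd45g*, a growth arrest gene, was at 66.2 and 52.6 TPM in control PCs and at 22.6 and 23.5 TPM in mutant PCs, whereas PBs had 484 and 512 TPM in control PB and 477 and 629 TPM in CreER libraries. *Ddit4*, which codes for an inhibitor of mTORC1 signaling, was at 100.1 and 89.4 TPM in control PCs and at 38.9 and 33.7 TPM in mutant PCs. *Trp73*, which codes for the p53 family member p73, was at 5.97 and 4.72 TPM compared with 2.47 and 1.60 TPM. *Osgin1* was at 23.9 and 18.0 TPM compared with 9.25 and 7.204 TPM, and the J-domain cochaperone gene *Dnajc12* was at 17.5 and 15.9 TPM compared with 7.35 and 6.35 TPM. *Gadd45a*, a further growth arrest gene, and *Hspa2*, a gene of the HSP70 family, complete the group.

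Of the 6 genes of membrane transport, *Kcnab2*, which codes for a beta subunit of potassium channels, had the highest level, at 247 and 204 TPM in control PCs and at 108 and 110.2 TPM in *Bhlha15*-deficient PCs. The glycine transporter gene *Slc6a9* was at 10.2 and 6.95 TPM in control PCs and at 2.98 and 5.32 TPM in mutant PCs, and its exons overlap those of *Ccdc24* and *B4galt2* on the opposite strand. *Slc20a2*, *Slc31a2*, *Slc35e3* and *Atp13a2* complete this group, with a median ratio of 0.452. The 5 genes of vesicle traffic included *Rab27a*, which codes for a Rab GTPase of granule exocytosis and was at 56.1 and 47.7 TPM in control PCs and at 22.03 and 22.2 TPM in mutant PCs. Its PB libraries were higher and separated, at 121 and 115 TPM in control PB and at 105 and 97.0 TPM in CreER PBs. *Sgsm3*, which codes for a regulator of Rab GTPases, was at 36.1 and 29.0 TPM compared with 11.9 and 11.9 TPM in PCs, the endosomal protein gene *Plekhf1* was at 7.10 and 7.85 TPM compared with 2.78 and 2.72 TPM, and *Dnm3* and *Pacsin1*, which code for a dynamin and a dynamin-binding protein, had ratios of 0.385 and 0.423.

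The cell division genes *Cdc25b*, *Melk* and *Cenpm* had PC ratios of 0.462 to 0.495. For the other 14 genes, little is known or no role was assigned here. *Mturn*, which is known from neural development, was at 16.8 and 13.3 TPM in control PCs and at 0.861 and 1.72 TPM in mutant PCs, an 11.6-fold lower mean. *Efcab2*, an EF-hand gene, was at 18.9 and 16.2 TPM compared with 3.70 and 4.85 TPM and thus stayed above its PB level of 2.44 and 2.84 TPM also in mutant PCs. *Wbp5* was abundant, at 538 and 512 TPM in control PCs and at 228 and 243 TPM in mutant PCs, as was *Tmem242* with 179 and 169 TPM compared with 87.2 and 76.9 TPM. *Gm11110* was at 6.77 and 5.79 TPM compared with 2.24 and 2.28 TPM. *Fam221a*, *4933404O12Rik*, *4921531C22Rik*, *9230114K14Rik*, *Zcchc24*, *Scarna2*, *Rwdd2a*, *Gm11346* and *Gm15987* make up the rest.

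The Y-linked genes *Uty* and *Kdm5d*, which code for histone demethylases, followed the Y-linked signal of the libraries. *Uty* was at 4.79 and 10.6 TPM in control PCs and at 3.79 and 0 TPM in *Bhlha15*-deficient PCs, and *Kdm5d* was at 7.92 and 16.6 TPM compared with 6.14 and 0.0158 TPM. The zero value falls on the mutant library in which *Ddx3y* was nearly absent. Without these genes, 95 genes remained.

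Several genes of the extracellular matrix or of fibroblasts were also among the 97. *Mxra8*, which codes for a cell adhesion protein, was at 9.05 and 6.86 TPM in control PCs and at 2.68 and 2.99 TPM in mutant PCs, in which the feeder markers *Col1a1* and *Col1a2* were below 0.5 TPM. The matrilin gene *Matn2* was at 10.1 and 7.19 TPM compared with 2.80 and 2.51 TPM, and the lysyl oxidase-like gene *Loxl3* was at 5.99 and 5.12 TPM compared with 1.93 and 1.80 TPM. In PBs, the levels of some of these genes moved with the feeder markers between replicates. *Mxra8* was at 25.9 and 30.2 TPM in control PB, at 35.1 and 21.5 TPM in CreER and at 41.8 and 36.02 TPM in Xbp1-deficient libraries, while *Col1a1* was at 588 and 705, 796 and 460, and 904 and 834 TPM in the same libraries.

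The second CreER library contained 0.577 times the *Col1a1* and 0.606 times the *Col1a2* of the first, and *Col3a1* and *Dcn* were at 0.541 and 0.629, whereas the low-level feeder marker *Lum* was at 2.62 times the first library. Of the 97 genes, 21 or 21.6% were at 0.75 or less in the second CreER library relative to the first, whereas this held for 6.99% of the 9194 genes past the limits. They included *Mxra8*, *Loxl3*, *Plekhf1* and *Mturn*, with 0.612, 0.680, 0.544 and 0.505 times the first library, as well as *Pdlim1*, *Tubg2*, *Tspan4* and *Ddit4*. *Nes* and *Csrp1*, with 0.898 and 0.943, did not follow this pattern. The part of feeder RNA in the PB values of the former genes was not tested. Leaving these 21 genes out, 76 genes remained.

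**Figure D4:**
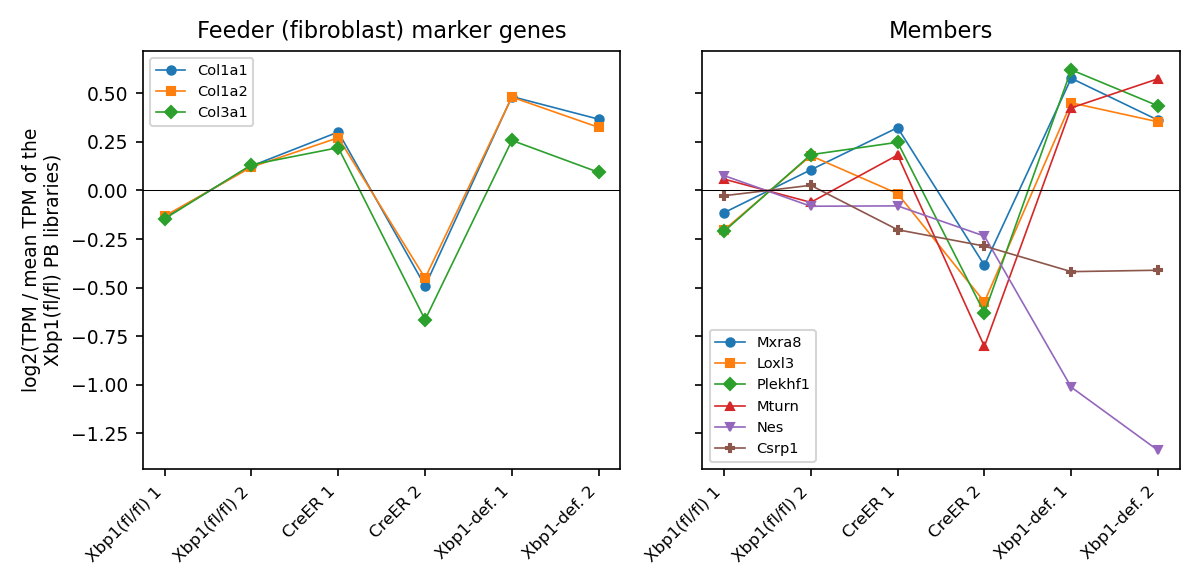
Level in the 6 PB libraries (x axis) of 3 feeder marker genes (left) and of 6 selected genes (right), as log2 of TPM over the mean of the control PB libraries (y axis), with 1 line for each gene. *Mxra8*, *Loxl3*, *Plekhf1* and *Mturn* dip in the second CreER library as *Col1a1*, *Col1a2* and *Col3a1* do, whereas *Nes* and *Csrp1* do not. The former selected genes were taken from the 21 at 0.75 or less in this library relative to the first, so that their dip follows from the choice. The feeder markers *Dcn* and *Lum*, at 0.629 and 2.62 times the first CreER library, are not drawn.

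The stage at which the 97 genes were expressed differed widely. The control PC mean was at least 2-fold above the control PB mean for 34 genes and at least 2-fold below it for 16 genes, with 47 genes in between, while 15.7% and 6.49% of the 9194 genes were past these folds. The ratio of control PCs to control PBs ranged from 0.0565 for *Timd2* to 13.2 for *Rhpn2*, with a median of 1.17. In *Bhlha15*-deficient PCs, the median ratio to control PBs was 0.499. For 22 genes, both control PC libraries were above and both mutant PC libraries below both control PB libraries, for 25 genes all 4 PC libraries were above and for 33 genes all 4 were below. PC and PB files came from different cell sources and were not scaled to each other, so that these levels are a description and were not tested.

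Xbp1-deficient PBs provided a comparison that the selection did not use, although it shares the control PB libraries with the CreER ratio. As *Bhlha15* was also nearly absent from these PBs, the question was whether the 97 genes changed there. All 97 genes entered a limma model of the 6 PB libraries on the log2 scale of scaled TPM plus 0.1, fitted to the 12125 genes that reached 1 TPM in 2 or more libraries, with Benjamini-Hochberg adjustment over all of them. Of the 97 genes, 25 or 25.8% were lower and 11 or 11.3% were higher in Xbp1-deficient PBs at an adjusted p under 0.05, compared with 18.0% and 10.3% of all genes fitted and with 22.3% and 11.4% of the genes past the level limits. The median log2 fold change was 0.00 for the 97 genes and 0.00 for all genes. With the threshold of more than 3-fold, an adjusted p under 0.05 and more than 5 TPM, 2 genes were lower and 1 was higher, while 1.63% and 0.239% of all genes were called. The shares of the 97 genes were thus close to those of the genes past the level limits in both directions. Of the 97 genes, 12 are in the list of Mist1-activated genes of the study, which was chosen on these samples and is no independent evidence. Markers of other cells differed between the compared PBs as well. The sum of 6 neutrophil markers was 8.41 and 7.92 TPM in control PBs and 121 and 120 TPM in Xbp1-deficient PBs, with 5 of the 6 markers higher and *Elane* at 0 in these libraries. Of 5 macrophage markers, *Cd68* was lower, at 128 and 131 TPM compared with 16.9 and 18.7 TPM, *Lyz2* was higher, at 5.86 and 5.22 TPM compared with 15.1 and 15.8 TPM, and *Csf1r*, *C1qa* and *C1qb* were below 0.25 TPM in both groups. Of 7 PC markers, *Mzb1* was lower, at 15570 and 14990 TPM compared with 3707 and 3547 TPM, as were *Xbp1*, the targeted gene, and *Tnfrsf17*. *Prdm1*, *Irf4* and *Tnfrsf13b* were higher in both Xbp1-deficient libraries, *Sdc1* overlapped, and the part of these shifts in the result was not tested.

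By comparison, 94 of the 143 genes at 0.5 to 0.8 in CreER PBs, or 65.7%, were lower in Xbp1-deficient PBs and 1 was higher, and 15 of the 21 genes at 0.5 or less were lower. As both PB ratios rest on the same control PB libraries, a chance deviation of these libraries moves both in the same direction, and the difference between the groups was not tested. Without scaling of the TPM, the median of all genes shifted to 0.21 on the log2 scale and the split turned to 14 lower and 26 higher of the 97 genes, or 14.4% and 26.8%, compared with 11.2% and 28.2% of all genes fitted. Leaving out the first control PB library gave 13 lower and 4 higher genes, or 13.4% and 4.12%, compared with 10.6% and 4.47% of all genes.

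*Kcnab2* was the most strongly reduced gene. It was at 159 and 157 TPM in control PB, at 130 and 131 TPM in CreER and at 20.5 and 21.4 TPM in Xbp1-deficient PBs, and its log2 fold change was -3.11 ± 0.08 (SE, limma, adjusted p = 1.6e-07). *Timd2* was at 25.1 and 70.2 TPM in Xbp1-deficient PBs, both below the control PB libraries but far apart, with a log2 fold change of -1.90 ± 0.37 (limma, adjusted p = 0.0063). These were the genes called lower with more than 3-fold change.

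*Wbp5* fell from 436 and 433 TPM in control PB to 183 and 174 TPM in Xbp1-deficient PBs (log2 fold change -1.49 ± 0.11, limma, adjusted p = 2.5e-05). *Nes* fell to 21.1 and 16.8 TPM (log2 fold change -1.38 ± 0.13, limma, adjusted p = 9.6e-05), and *Cd93* fell to 266 and 283 TPM (log2 fold change -1.11 ± 0.09, limma, adjusted p = 5.6e-05). Reduced levels were thus found in Xbp1-deficient PBs for genes that overlapped between the groups or stayed within the band in CreER PBs. *Dnajc12* was reduced from 13.03 and 11.4 TPM to 5.88 and 3.78 TPM (log2 fold change -1.56 ± 0.22, limma, adjusted p = 0.0012). *Gadd45g*, *Fads2* and *Socs3* had log2 fold changes of -0.91, -0.90 and -0.93 and adjusted p-values of 0.0043, 7.6e-05 and 0.014 (limma). Further genes with a reduced level included *Atp13a2*, *Nuggc*, *Csrp1*, *Sgsm3*, *Tuba4a*, *Fcgr2b* and *Got1*.

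In the other direction, *Slc6a9* had the largest change. It was at 8.23 and 7.55 TPM in control PB, at 9.08 and 7.53 TPM in CreER and at 28.7 and 33.1 TPM in Xbp1-deficient PBs, with a log2 fold change of 1.74 ± 0.12 (limma, adjusted p = 2.3e-05). *Trp73* rose from 2.88 and 2.93 TPM to 7.93 and 8.61 TPM (log2 fold change 1.27 ± 0.17, limma, adjusted p = 0.00096), and *Tubg2* rose from 2.81 and 2.84 TPM to 7.39 and 7.196 TPM (log2 fold change 1.14 ± 0.21, limma, adjusted p = 0.0042). These genes thus had a lower mean in *Bhlha15*-deficient PCs and a higher one in Xbp1-deficient PBs. *Dnm3* and *Ddit4* rose with log2 fold changes of 0.79 and 0.57 (limma, adjusted p = 0.027 and 0.0095). *Tspan4*, *Ifitm3*, *Hyls1*, *Batf*, *Cdc42bpg* and *Tubb2a* rose by 0.34 to 0.45 on the log2 scale. Of the 5 feeder markers, *Col1a1*, *Col1a2*, *Col3a1* and *Dcn* were at 1.13 to 1.34 times the control PB mean in these PBs and *Lum* was at 0.252, and their part was not tested.

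**Figure D5:**
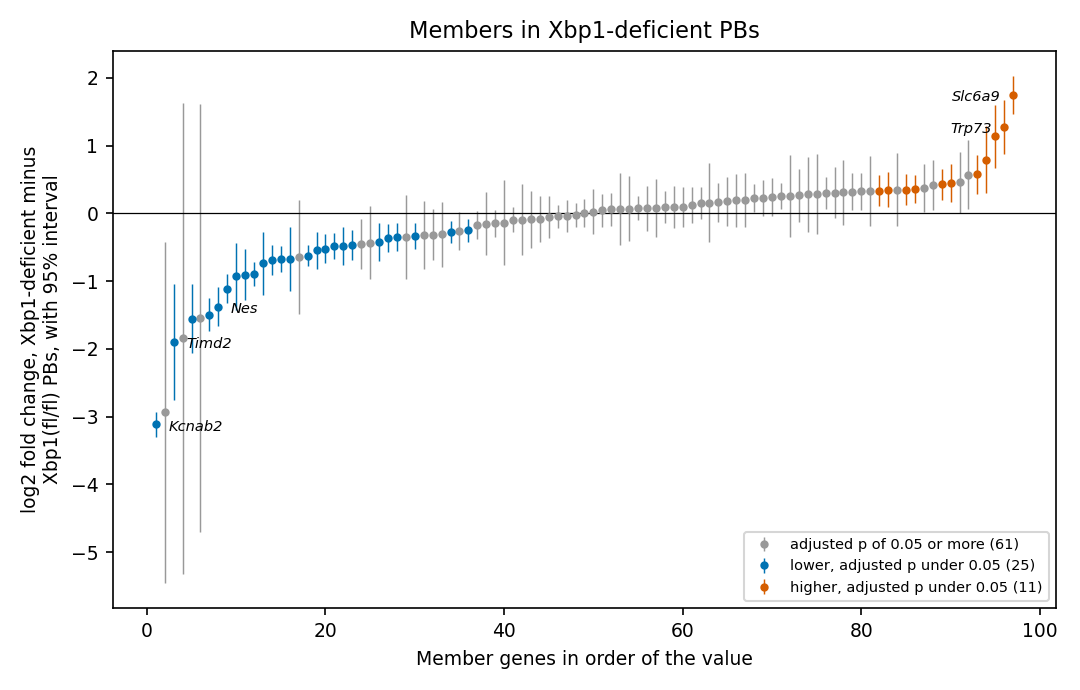
Log2 fold change in Xbp1-deficient over control PBs (y axis) with 95% intervals of the limma model for the 97 selected genes in order of the value (x axis). The 25 lower genes (blue) reach -3.11 for *Kcnab2*, the 11 higher genes (orange) reach 1.74 for *Slc6a9*, and 61 genes (grey) were not called; the widest intervals belong to *Scarna2* and the Y-linked genes.

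For 61 of the 97 genes the test was not passed, which does not show that they were unaffected. Intervals were narrow for some of them, such as *Rab27a* with a log2 fold change of -0.03 (95% interval -0.20 to 0.15) and *Pgam2* with 0.10 (95% interval -0.19 to 0.39), with library values of 133 and 134 TPM and of 13.5 and 14.7 TPM in Xbp1-deficient PBs. They were wide for others, such as *Car5b* with 0.26 (95% interval -0.34 to 0.86). *Uty* and *Kdm5d* had 0.166 and 18.7 TPM and 0.258 and 17.2 TPM in the 2 Xbp1-deficient libraries, so that no direction can be given. By function, 7 of the 18 genes of receptors, membrane proteins and immune signaling were lower and 3 were higher, 5 of the 20 metabolic genes were lower and none was higher, and 4 of the 19 cytoskeletal genes were lower and 4 were higher, where 22.3% and 11.4% of the genes past the level limits were called. These groups are small and were assigned by hand, and nothing particular to them is read from the counts.

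Of 15 gene lists on PC and B cell biology, 6 held any of the 97 genes, which make up 1.06% of the genes past the level limits, so that few or none are to be found in lists of this size. The list of amino acid, proline and one-carbon metabolism held 2 of its 22 genes past the limits, *Got1* and *Bckdhb*, and 7 of the 22 were at 0.5 or less in *Bhlha15*-deficient PCs, compared with 2.87% of all genes past the limits. The list of lipid and sphingolipid metabolism held *Fads2* and *Fabp5* among 25 genes, of which 4 were at 0.5 or less. *Rab27a* was 1 of 18 genes of vesicle traffic, in which 4 were at 0.5 or less, led by *Rab3d*, a GTPase of secretory granules, with a ratio of 0.0546. *Car5b*, *Socs3* and *Cd93* were each the only selected gene of the lists of mitochondrial genes, surface receptors and PC genes. None of the 97 genes was among the 26 ER chaperones and UPR genes, whose PC ratios ranged from 0.669 to 1.195, or among the 28 B cell identity genes past the limits, with a lowest ratio of 0.519. The lists of MHC class II, cell cycle and interferon response genes likewise had no gene at 0.5 or less. Those of lysosome, calcium handling, transcription and p53 target genes had 3 of 26, 4 of 22, 5 of 23 and 1 of 21. These are shares of the listed genes past the limits, compared with 2.87% of all genes past the limits. None of these genes at 0.5 or less was among the 97. The lists were chosen with earlier results of these data known, so that no excess in a list is read as a result.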

How the data were processed

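RNA-seq was measured in 10 libraries of 5 groups and Mist1 Bio-ChIP-seq in 2 experiments. The authors trimmed reads with cutadapt, aligned them with STAR 2.4.2 to mm9, counted them with featureCounts 1.5 and deposited TPM values that leave out immunoglobulin and T cell receptor genes. TPM keep no read number, so that the depth is unknown, and their 2 libraries per group limit precision. The authors called peaks with MACS after alignment with Bowtie 1.0.0 and deposited positions, without heights. Whether counting used the strand is not given in the sources used here, so that opposite-strand genes with overlapping exons cannot be told apart. Such overlaps touch *Slc6a9*, *Tuba4a*, *Loxl3*, *Mxra8*, *Tspan4*, *Sgsm3*, *Rhpn2*, *Hyls1*, *Cdc25b* and *Trp73*, among others, and 13 of the 97 names carry a suffix that reads as an overlap mark and was dropped here.

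Names were joined exactly and the selection was applied to TPM as deposited. For the Xbp1 contrast, the 6 PB libraries were scaled by the median of ratios, and log2(TPM + 0.1) of genes that reached 1 TPM in 2 or more libraries was fitted with limma 3.58.1 in R 4.3.3 (lmFit, eBayes with a trend). Fold changes on this scale understate those of low genes. This script was tested on simulated data. Regions were merged with bedtools 2.31.1 and similar transcripts were found with blastn 2.17.0, at 95% identity over at least 200 bases. The 97 genes, the gene lists and the tests were chosen with earlier results of these data known. Genes were named with values if they were the 25 with the lowest PC ratio and separated libraries, the 10 with the highest control PC mean, the 10 with the largest called changes in each direction in the Xbp1 contrast, in the study's list of Mist1-activated genes, in a gene list or next to a limit. The other selected genes are listed to account for the genes, except for 1 that is counted but not reported here, and *Pacsin1* and *Rab3d*, which the rule does not cover, were picked with their values in view. Alternatives changed the scaling, pseudocount, filter, model, limits, peak set and distance, and left out each library.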

Additional observations from a re-analysis of the deposited data

Results flagged for a closer look

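*Kdm5d* was the only one of the 97 genes with both *Bhlha15*-deficient PC libraries below both control PC libraries and both CreER PB libraries above both *Xbp1* fl/fl PB libraries, with a CreER ratio of 1.08. The difference between the stages was not tested. *Kdm5d* is Y-linked, and its value in the second *Bhlha15*-deficient PC library was 0.0158 TPM, where *Ddx3y* was at 0.0187 TPM.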

How the results depend on the processing

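No paired analysis was possible because the labels carry no replicate numbers, and those used here follow accession order and only name a library. The number of selected genes was 97, and it was 14 with a PC ratio of at most 1/3 and 39 with a PB band of 0.9 to 1/0.9, as both limits keep fewer genes by construction. It ranged from 68 without the first CreER library to 129 without the second control PC library. It was 105 with scaled TPM, of which 92 were among the 97, and 90 with 1 TPM added to both means, of which 82 were shared. It was 78 with a PB level of at least 5 TPM. Leaving out the Y-linked genes (95 genes) and those low in the second CreER library (76 genes) were alternatives chosen after seeing the data.

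In the Xbp1 contrast, 25 genes were lower, and the shares over all genes moved as well. The number was 14 with TPM as deposited and ranged from 13 to 27 when each library was left out. The number of higher genes was 11, and it was 26 or 26.8% with TPM as deposited, compared with 28.2% of all genes fitted. With no filter on low values, 6 genes or 6.19% were higher, compared with 5.3% of all genes. With eBayes without a trend, 5 genes or 5.2% were higher, compared with 7.33%. With only the 4 compared libraries, 18 genes or 18.6% were higher, compared with 14.5%. Both numbers also moved when each library was left out, as did the shares over all genes. The median log2 fold change of the 97 genes was then -0.0008 to 0.022, compared with -0.0033 to 0.0064 for all genes. The cause of these shifts was not tested apart from the scaling, which moves the median of all genes. Where 1 library of a group was left out, the other is assumed to vary like the remaining groups. Of 36 genes called, 15 kept the call under every alternative run, 12 of them lower and 3 higher, namely *Slc6a9*, *Trp73* and *Tubg2*, and no gene changed sign in 504 combinations of gene and alternative. How many of all genes called kept the call was not counted. The share with a common region near a TSS was 79.4% to 87.6% under the alternatives run, compared with 68.4% to 79.7% of all genes past the limits. That in the gene or within 10 kb was 91.8% to 95.9%, compared with 85.6% to 91.8%, but within 50 kb it was 95.9% compared with 96.03%, so that no excess was seen there.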
